A study of Mus musculus with 12 samples.

Results

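Replication-dependent histone genes encode the linker histone H1 and the core histones H2A, H2B, H3 and H4 that package newly copied DNA. The genes were taken by symbol: 29 genes of 22180 with a transcript cluster (the array's unit of 1 gene) that carries a single symbol matched the histone naming pattern, through 30 such clusters, of which the one with the highest mean stood for its gene. The 29 comprised 8 H1, 6 H2A, 8 H2B and 7 H4 genes. No H3 gene was among them, because each H3 cluster on the array carries several symbols, and these are described separately below by cluster. H1f0 had no cluster with a single symbol and is not analysed here.

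Most of these genes have no introns, are copied into mRNA mainly while DNA is replicated, and make an mRNA that ends in a stem-loop in place of a poly(A) tail. The stem-loop is bound by the protein SLBP, which takes the mRNA through processing and translation, and the mRNA is destroyed quickly when replication stops. In lymphocytes, which rest outside the cell cycle until their antigen receptor is engaged, entry into S phase is when histone supply has to rise. Not every gene the pattern takes is of this kind: H1f10 is a replacement linker histone with a polyadenylated mRNA, H1f6 and H1f7 belong to male germ cells, H1f8 to the oocyte, and H2ac1 and H2bc1 to the testis.

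The cells were central regulatory T (cTreg) cells of Foxp3-YFP+ transgenic mice on the C57BL/6 background, in which the reporter marks cells that express the regulatory T cell factor Foxp3. They were sorted as CD4+ YFP+ cells with high CD62L and low CD44 from spleen and peripheral lymph nodes. Each of the 4 groups had 3 biological replicates, 12 arrays in all: PP242 (500 nM) and Torin 1 (50 nM), which both inhibit the kinase mTOR, and the vehicle DMSO, each given during 20 h of culture with anti-CD3 and anti-CD28 antibodies and interleukin-2, and unstimulated cells at 0 h, whose labels also name DMSO. A 20 h culture lacking the antibodies was not among the groups, so stimulation and time in culture cannot be told apart, and a compound's own action cannot be told apart from mTOR inhibition by a single dose of each. How many mice made up a replicate is not given in the sources used here.

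Values are RMA log2 expression values from GeneChip Mouse Gene 2.0 ST arrays made from 500 pg of total RNA. Array medians lay between 4.95 and 5.08, correlations between arrays between 0.9637 and 0.9873, and no 2 arrays were identical. The median of all clusters without a symbol, 4.85, was used as a dim level: 10 of the 29 genes had a mean over the 12 arrays at or above it, against 55.8% of all genes, and 11 were above it in at least 1 group. The mean of 10 T and Treg cell markers was 10.09 to 10.35 on every array, whereas markers of B cells (9 genes, 4.48 to 4.81), myeloid cells (12 genes, 4.67 to 5.05), CD8 and NK cells (9 genes, 4.78 to 5.22) and erythroid cells (3 genes, 4.58 to 4.89) stayed near the dim level on average. These averages include brighter members: depending on the group, 3 or 4 B cell and 5 or 6 myeloid markers had a mean at or above the dim level. Of the CD8 and NK cell markers, Cd8b1 averaged 7.68 in DMSO cells and 8.08 in unstimulated cells, and Nkg7 averaged 8.18 in DMSO cells and 6.18 in unstimulated cells, a called rise. The 6 platelet markers averaged 5.21 to 5.27 on DMSO arrays, against 5.58 to 5.69 on unstimulated arrays, with 3 called lower, and their part in the histone results was not tested.

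The genes lie in clusters in the genome. By RefSeq on GRCm38.p6, 21 are in the Hist1 cluster on chromosome 13 (chr13:21722044-23934913), 5 in the Hist2 cluster on chromosome 3 (chr3:96219885-96270192), and H1f7, H1f8 and H1f10 stand outside on chromosomes 15, 6 and 6. RefSeq gave a promoter window, 250 bases before to 50 after the gene's start, for 27 of the 29 (not H2bc21 and H4c14). The 5 windows that follow belong to the genes called higher in DMSO than in unstimulated cells under every setting that kept the gene, apart from stricter thresholds. A filter on dim genes dropped H2ac15 and H1f5. Capitals mark, on either strand, CCAAT, which reads ATTGG from the other strand, the TATA box as TATAAA, the octamer ATTTGCAT known from H2B promoters, and AAACACA, the core of the H1 promoter box.
H2ac21, chr3:96219635-96219934, plus strand: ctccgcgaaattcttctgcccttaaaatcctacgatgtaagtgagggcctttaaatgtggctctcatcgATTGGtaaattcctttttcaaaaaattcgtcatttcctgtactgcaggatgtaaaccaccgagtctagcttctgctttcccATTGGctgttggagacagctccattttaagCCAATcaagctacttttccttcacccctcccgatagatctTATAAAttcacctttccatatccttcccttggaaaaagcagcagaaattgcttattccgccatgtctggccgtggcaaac
H2ac20, chr3:96220831-96221130, minus strand: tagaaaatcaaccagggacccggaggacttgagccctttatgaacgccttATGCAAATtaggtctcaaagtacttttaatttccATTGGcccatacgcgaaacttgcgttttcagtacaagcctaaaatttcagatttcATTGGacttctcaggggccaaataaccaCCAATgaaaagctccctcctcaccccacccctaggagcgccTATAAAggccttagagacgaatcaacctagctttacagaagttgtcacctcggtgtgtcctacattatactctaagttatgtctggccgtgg
H2ac15, chr13:21753863-21754162, minus strand: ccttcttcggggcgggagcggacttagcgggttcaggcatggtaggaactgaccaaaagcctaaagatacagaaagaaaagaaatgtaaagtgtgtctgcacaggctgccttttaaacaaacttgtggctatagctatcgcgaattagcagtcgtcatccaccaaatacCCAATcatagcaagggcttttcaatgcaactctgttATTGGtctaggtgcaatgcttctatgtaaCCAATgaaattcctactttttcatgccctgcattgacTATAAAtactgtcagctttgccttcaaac
H2bc3, chr13:23746484-23746783, plus strand: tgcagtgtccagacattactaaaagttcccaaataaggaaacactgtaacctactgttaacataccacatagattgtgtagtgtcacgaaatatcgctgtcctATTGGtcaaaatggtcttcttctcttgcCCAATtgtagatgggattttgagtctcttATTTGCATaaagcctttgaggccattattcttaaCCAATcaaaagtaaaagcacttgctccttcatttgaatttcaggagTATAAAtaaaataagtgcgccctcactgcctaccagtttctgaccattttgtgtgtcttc
H1f5, chr13:21780576-21780875, minus strand: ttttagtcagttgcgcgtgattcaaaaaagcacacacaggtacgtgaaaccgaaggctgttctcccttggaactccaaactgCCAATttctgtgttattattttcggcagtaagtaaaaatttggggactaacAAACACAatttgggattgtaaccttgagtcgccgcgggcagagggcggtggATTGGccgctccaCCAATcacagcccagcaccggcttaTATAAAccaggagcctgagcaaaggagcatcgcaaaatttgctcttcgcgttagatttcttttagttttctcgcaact
All 5 hold 1 TATAAA and 3 CCAAT motifs, H2ac20 and H2bc3 also hold the octamer, and H1f5 alone of the 5 holds AAACACA. The motifs were spread unevenly over the histone types of the 27 windows. CCAAT stood in 6 of 6 H2A and 7 of 7 H2B windows, at least 2 times in each, but in 1 of 6 H4 windows, against 37.4% of 32851 windows of all genes with 1 or more and 11.7% with 2 or more. TATAAA was present in 16 of 27 (13.6% of all windows), and the octamer in 5 of 7 H2B and 3 of 6 H2A windows and in none of the H1 and H4 windows (1.74% of all). AAACACA stood in 4 of 8 H1, 2 of 7 H2B and 1 of 6 H2A windows and in none of the H4 windows (7.18% of all). The 3 H2A octamers, of H2ac1, H2ac12 and H2ac20, all read on the opposite strand. The H2ac1 and H2ac12 windows overlap those of H2bc1 and H2bc12, and each pair shares its octamer site. The H2ac20 window spans the start of H2bc21, which has no window. Motif counts of the H2A and H2B types are therefore not independent. A match describes the letters and is not evidence that a factor binds.

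After 20 h of stimulation, at least 1 gene of each measured histone type was called higher, and 1 H1 and 1 H4 gene were called lower. Comparing DMSO cells at 20 h with unstimulated cells, 7 of 29 genes were called higher at an adjusted p under 0.05 (11.8% of all 22180 genes were), namely H1f1, H1f5, H2ac15, H2ac20, H2ac21, H2bc3 and H4c17, and 2 were called lower (12.1% of all genes), H1f2 and H4c14. Those called higher were 3 of 6 H2A, 2 of 8 H1, 1 of 8 H2B and 1 of 7 H4 genes. The H2B and H4 shares are close to that of all genes. The median difference was 0.18 on the log2 scale, against -0.04 for all genes. By type, the median was 0.53 for H2A, 0.22 for H2B, 0.19 for H4 and -0.15 for H1, and no test was made between types because genes are not replicates. RNA came from whole cultures, so a different share of cells in S phase and a different amount of histone mRNA in each such cell cannot be told apart. Leaving out 1 array at a time, the number called lay between 7 and 11.

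Set against DMSO cells, most of the genes called with either inhibitor were lower, the H2A genes H2ac15 and H2ac21 with both. With PP242, 8 genes were called lower (9.27% of all genes were), H1f1, H1f5, H2ac10, H2ac15, H2ac20, H2ac21, H2bc18 and H2bc22, and 3 higher (7.38% of all genes), H1f7, H2bc9 and H4c14. With Torin 1, 3 were called lower (4.79% of all genes), H2ac15, H2ac21 and H2bc3, and 1 higher (3.33% of all genes), H2bc21. The median difference was -0.19 with PP242 and -0.08 with Torin 1, against 0.01 for all genes in each. Both comparisons use the same 3 DMSO arrays, as does the comparison with unstimulated cells, so they are not independent of each other. The PP242 count rested on single arrays: 11 genes were called with all arrays, but 4 without PP242 replicate 1, 5 without DMSO replicate 1, 6 without DMSO replicate 2 and 7 without PP242 replicate 3.

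**Figure D1:**
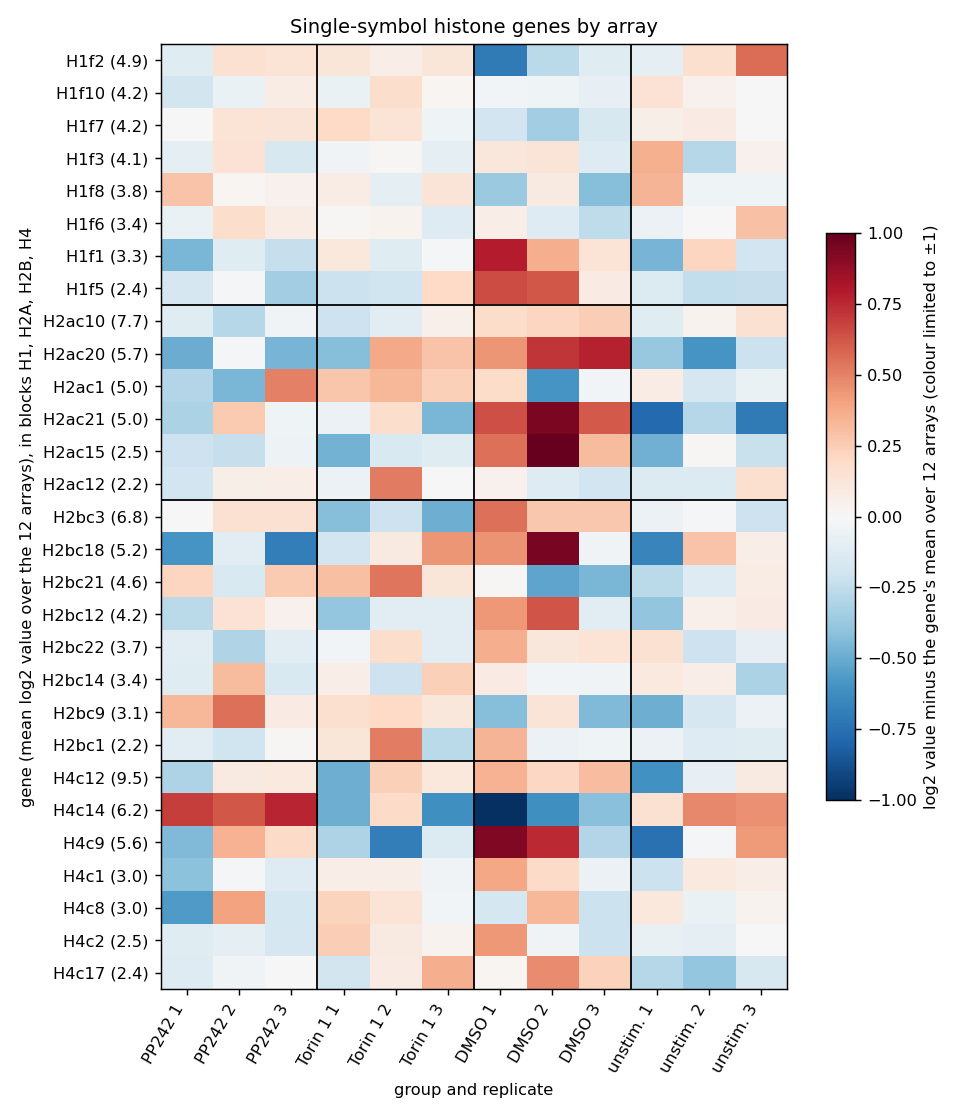
Log2 value of each of the 29 histone genes on each of the 12 arrays, shown as the difference from the gene's own mean (colour, limited to 1 log2 unit either way; the mean stands beside the symbol). Columns are PP242, Torin 1, DMSO and unstimulated arrays and rows are grouped as H1, H2A, H2B and H4. The rows of H2ac15, H2ac20 and H2ac21 are highest in the DMSO columns, and H4c14 is low there.

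The H2A genes, which encode a core histone, changed with activation at 3 of 6 genes, all upward. H2ac21 read 5.65, 5.95 and 5.62 in DMSO cells, against 4.23, 4.72 and 4.30 in unstimulated cells. With PP242 it read 4.69, 5.27 and 4.96, and with Torin 1 it read 4.95, 5.18 and 4.55. All DMSO arrays stood above all others, and the inhibitor arrays straddled the dim level. As the unstimulated mean lies below the dim level, H2ac21 was at least 1.86-fold higher in DMSO than in unstimulated cells (against the unstimulated arrays with readings under the dim level set to it; log2 difference 1.33 ± 0.19 SE, adjusted p = 0.000122, limma). It was lower than in DMSO cells by 0.77 ± 0.19 log2 units with PP242 and by 0.85 ± 0.19 with Torin 1 (log2 differences -0.77, adjusted p = 0.0109, and -0.85, adjusted p = 0.0124). The PP242 call was lost without DMSO replicate 2 (adjusted p = 0.0507) or PP242 replicate 1 (0.059), and the Torin 1 call without DMSO replicate 2 (0.0565) or Torin1 replicate 3 (0.0543). H2ac21 is the gene with 2 single-symbol clusters, and these values are those of the brighter one. The size of its differences depended on the setting. Over 24 settings they ranged from 0.81 to 1.48 on activation, from -0.92 to -0.51 with PP242 and from -0.99 to -0.55 with Torin 1.

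H2ac20, a neighbour of H2ac21 in Hist2 with 58 bases between the 2 genes, read 6.13, 6.40 and 6.46 in DMSO cells, against 5.31, 5.10 and 5.47 in unstimulated cells. It read 5.19, 5.68 and 5.22 with PP242, and 5.26, 6.07 and 5.97 with Torin 1. All readings were above the dim level. Torin 1 replicates 2 and 3 read just below the DMSO arrays, while replicate 1 lay among the unstimulated ones. H2ac20 was 2.05-fold higher in DMSO than in unstimulated cells (1.03 ± 0.20, adjusted p = 0.00148) and 1.96-fold lower with PP242 than with DMSO (-0.97 ± 0.20, adjusted p = 0.00366). The Torin 1 difference, -0.57 ± 0.20, did not pass (adjusted p = 0.104).

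H2ac15, in Hist1, was dim throughout: it read 3.05, 3.56 and 2.82 in DMSO cells, against 2.02, 2.51 and 2.28 in unstimulated cells. The PP242 arrays read 2.29, 2.27 and 2.45 and the Torin 1 arrays 2.03, 2.35 and 2.38. The DMSO arrays again stood apart from all the others, which overlapped one another. The differences were 0.87 ± 0.17 for DMSO against unstimulated cells (adjusted p = 0.00199), -0.81 ± 0.17 for PP242 (0.00517) and -0.89 ± 0.17 for Torin 1 (0.00642) against DMSO. All 3 calls were kept in each of 23 alternative settings, and the filter on dim genes dropped the gene.

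The other H2A genes moved little or not detectably. H2ac10, well above the dim level, read 7.58, 7.41 and 7.66 with PP242, against 7.88, 7.91 and 7.94 with DMSO (-0.36 ± 0.11, adjusted p = 0.0336). That call was lost without any 1 of the 3 DMSO arrays or without PP242 replicate 1 or 2 (adjusted p 0.0622 to 0.133). The difference was -0.30 ± 0.11 with Torin 1 (adjusted p = 0.116) and 0.19 ± 0.11 for DMSO against unstimulated cells (0.235). H2ac12, between 1.97 and 2.68 on every array, and the testis gene H2ac1, between 4.45 and 5.54, were called in no comparison.

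**Figure D2:**
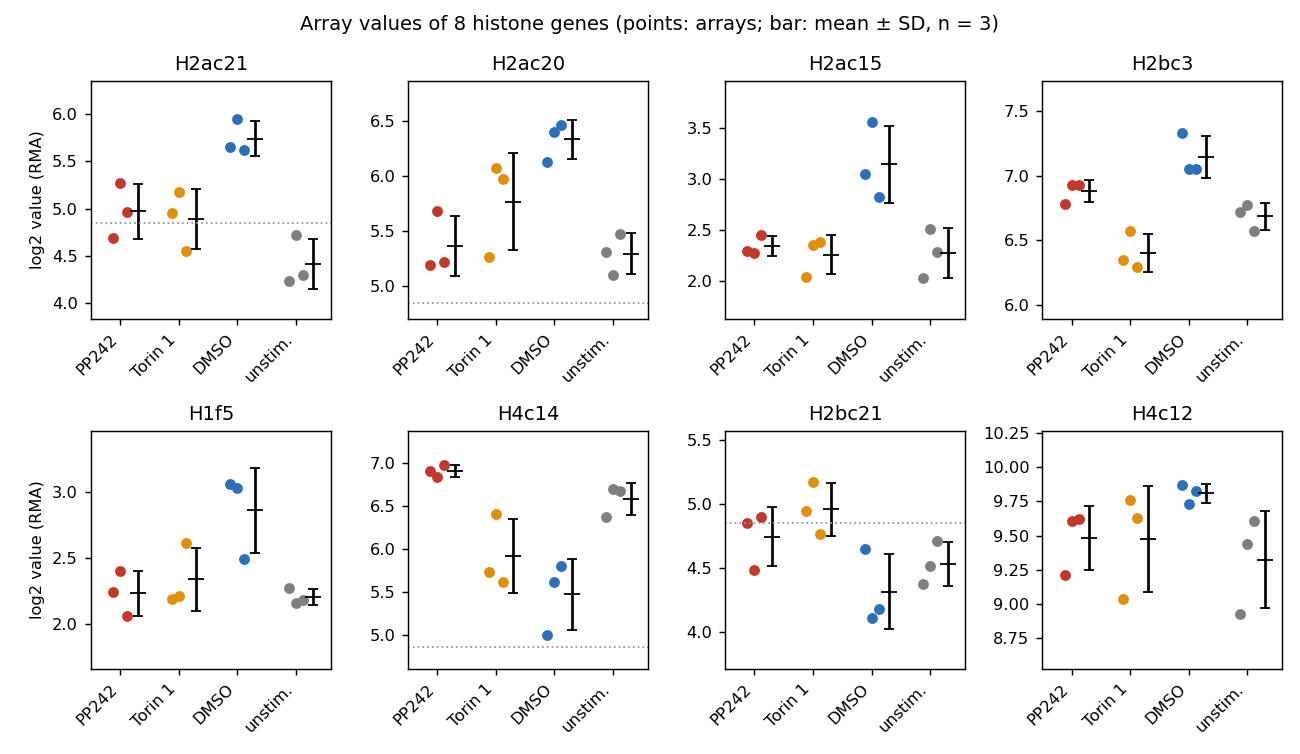
Log2 values (RMA) of 8 histone genes on each array, by group, with the mean and SD (n = 3) beside the points and the dim level of 4.85 as a dotted line where it falls within the axis. H2ac21, H2ac20 and H2ac15 are highest in DMSO cells, H4c14 is lowest in DMSO cells, and H4c12, read from 8.92 to 9.87, has DMSO arrays above all unstimulated ones but overlapping Torin 1.

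The H2B genes, which encode the partner of H2A in the nucleosome, split by gene. H2bc3 read 6.35, 6.57 and 6.29 with Torin 1, against 7.33, 7.05 and 7.05 with DMSO. PP242 arrays read 6.78, 6.93 and 6.93 and unstimulated arrays 6.72, 6.77 and 6.57. Torin 1 arrays were lowest, touching the unstimulated arrays at 6.57, and DMSO arrays highest, with the PP242 arrays in between. The gene was higher in DMSO than in unstimulated cells by 0.46 ± 0.12 (adjusted p = 0.00955) and lower with Torin 1 than with DMSO (-0.74 ± 0.12, adjusted p = 0.00146), and both calls were kept in each of 24 settings. The PP242 difference from DMSO, -0.27 ± 0.12, did not pass (adjusted p = 0.147), and the direct difference between PP242 and Torin 1, 0.48 ± 0.12, did not pass either (adjusted p = 0.102).

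H2bc18, in Hist2, read 4.58, 5.06 and 4.48 with PP242, against 5.62, 6.12 and 5.14 with DMSO, with no overlap. The difference was -0.92 ± 0.27 (adjusted p = 0.0293), at least 1.63-fold as the PP242 mean is below the dim level. It was lost without DMSO replicate 1 (0.0672) or 2 (0.132) and without PP242 replicate 1 (0.0991) or 3 (0.103). H2bc18 read 4.98, 5.26 and 5.61 with Torin 1, overlapping DMSO (-0.34 ± 0.27, adjusted p = 0.538).

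H2bc21 lies beside H2ac20 in Hist2. It read 4.94, 5.17 and 4.76 with Torin 1, against 4.65, 4.11 and 4.18 with DMSO, so that the Torin 1 arrays lay around the dim level and the DMSO arrays below it. It was at least 1.08-fold higher with Torin 1 (0.64 ± 0.16, adjusted p = 0.0273), a call lost without DMSO replicate 2 (0.108) or 3 (0.0926) or Torin1 replicate 1 (0.0753) or 2 (0.105). With PP242 it read 4.85, 4.48 and 4.90 (0.43 ± 0.16, adjusted p = 0.0977), which passed without DMSO replicate 1 (0.0234) or PP242 replicate 2 (0.0482). RefSeq gives H2bc21 a length of 2667 bases, against 384 to 794 for the other Hist1 and Hist2 genes except H2bc22, at 14079 bases.

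H2bc21 and H2ac20 are separated by 191 bases, and the H2ac20 window shown above spans the first base of the H2bc21 interval. The 2 genes did not go together: against DMSO, H2ac20 differed by -0.97 with PP242 and -0.57 with Torin 1, and H2bc21 by 0.43 and 0.64. Another H2A and H2B pair, H2ac12 and H2bc12, lies 177 bases apart on opposite strands, and neither gene was called. H2bc12 read 3.88, 4.29 and 4.19 with PP242, 3.76, 4.04 and 4.04 with Torin 1, 4.58, 4.78 and 4.04 with DMSO and 3.75, 4.20 and 4.23 in unstimulated cells. DMSO replicate 3 was its lowest DMSO array, and without it H2bc12 was called higher on activation (adjusted p = 0.0198) and lower with PP242 (0.0435) and Torin 1 (0.0242).

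2 further H2B genes were called with PP242, both dim. H2bc9 read 3.42, 3.64 and 3.17 with PP242, against 2.66, 3.22 and 2.65 with DMSO (0.57 ± 0.17, adjusted p = 0.0296). The groups overlapped, and the call was lost without DMSO replicate 1 or 3 or PP242 replicate 1 or 2 (adjusted p 0.0805 to 0.122). With Torin 1 it was called higher only when DMSO replicate 2 was left out (0.59, adjusted p = 0.0401). H2bc22 read 3.59, 3.39 and 3.58 with PP242, against 4.06, 3.81 and 3.83 with DMSO (-0.38 ± 0.12, adjusted p = 0.0453). It was lost without any 1 PP242 or DMSO array and also without unstimulated replicate 3 or Torin1 replicate 1 (adjusted p 0.0574 to 0.16). H2bc14 and the testis gene H2bc1 were called in no comparison.

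Of the linker histones, H1f1 and H1f5 were higher and H1f2 lower in DMSO than in unstimulated cells. H1f5, at the dim end of the array, read 3.06, 3.03 and 2.49 in DMSO cells, against 2.27, 2.16 and 2.18 in unstimulated cells, without overlap. The difference was 0.66 ± 0.16 (adjusted p = 0.00706), kept in each of 23 settings, and the filter on dim genes dropped the gene. H1f5 read 2.24, 2.40 and 2.06 with PP242 (-0.62 ± 0.16 against DMSO, adjusted p = 0.0137) and 2.19, 2.21 and 2.61 with Torin 1 (-0.52 ± 0.16, adjusted p = 0.0595). The PP242 call was lost without DMSO replicate 1 (0.0602) or 2 (0.0602) or PP242 replicate 3 (0.0581), and the Torin 1 difference passed without DMSO replicate 3 (0.0124) or Torin1 replicate 3 (0.0325).

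H1f1 read 2.83, 3.16 and 3.05 with PP242, against 4.07, 3.65 and 3.42 with DMSO, which is also below the dim level. All DMSO arrays were above all PP242 and Torin 1 arrays, and unstimulated replicate 2, at 3.50, reached into the DMSO range. H1f1 was lower with PP242 (-0.70 ± 0.18, adjusted p = 0.0147), which was lost without DMSO replicate 1 (0.067) or PP242 replicate 1 (0.0702). It was higher in DMSO than in unstimulated cells (0.58 ± 0.18, adjusted p = 0.0305), which was lost without unstimulated replicate 1 (0.142) or 3 (0.0868) or DMSO replicate 1 (0.133) or 2 (0.055).

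H1f2 read 4.20, 4.64 and 4.79 in DMSO cells, against 4.81, 5.07 and 5.47 in unstimulated cells. The groups did not overlap, though the nearest arrays of the 2, at 4.79 and 4.81, almost met. It was at least 1.2-fold lower in DMSO cells, whose mean is below the dim level (-0.58 ± 0.17, adjusted p = 0.0233), which was lost without unstimulated replicate 3 (0.114) or DMSO replicate 1 (0.105). All PP242 arrays (4.79, 5.06 and 5.05) and Torin 1 arrays (5.03, 4.98 and 5.03) read at or above the DMSO arrays, with differences of 0.43 ± 0.17 (adjusted p = 0.11) and 0.47 ± 0.17 (adjusted p = 0.111).

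Among the linker histones of other kinds, H1f7 was called higher with PP242 at 4.16, 4.30 and 4.29, against 3.97, 3.81 and 4.0 with DMSO (0.32 ± 0.10, adjusted p = 0.0391). The call was lost without any 1 PP242 array, without DMSO replicate 1 or 2 and without unstimulated replicate 2 or 3 (adjusted p 0.0502 to 0.146), and it was kept in 10 of 23 settings. H1f7 is a germ cell gene whose readings here were all below the dim level. H1f10, the replacement linker histone, read 4.04 to 4.4 on all 12 arrays and was called in no comparison, nor were H1f3, H1f6 and H1f8 with all arrays. Without DMSO replicate 2, H1f8 was called lower on activation (-0.48, adjusted p = 0.0273) and higher with PP242 (0.51, adjusted p = 0.0285), and without Torin1 replicate 3 H1f7 was called higher with Torin 1 (0.40, adjusted p = 0.0484).

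**Figure D3:**
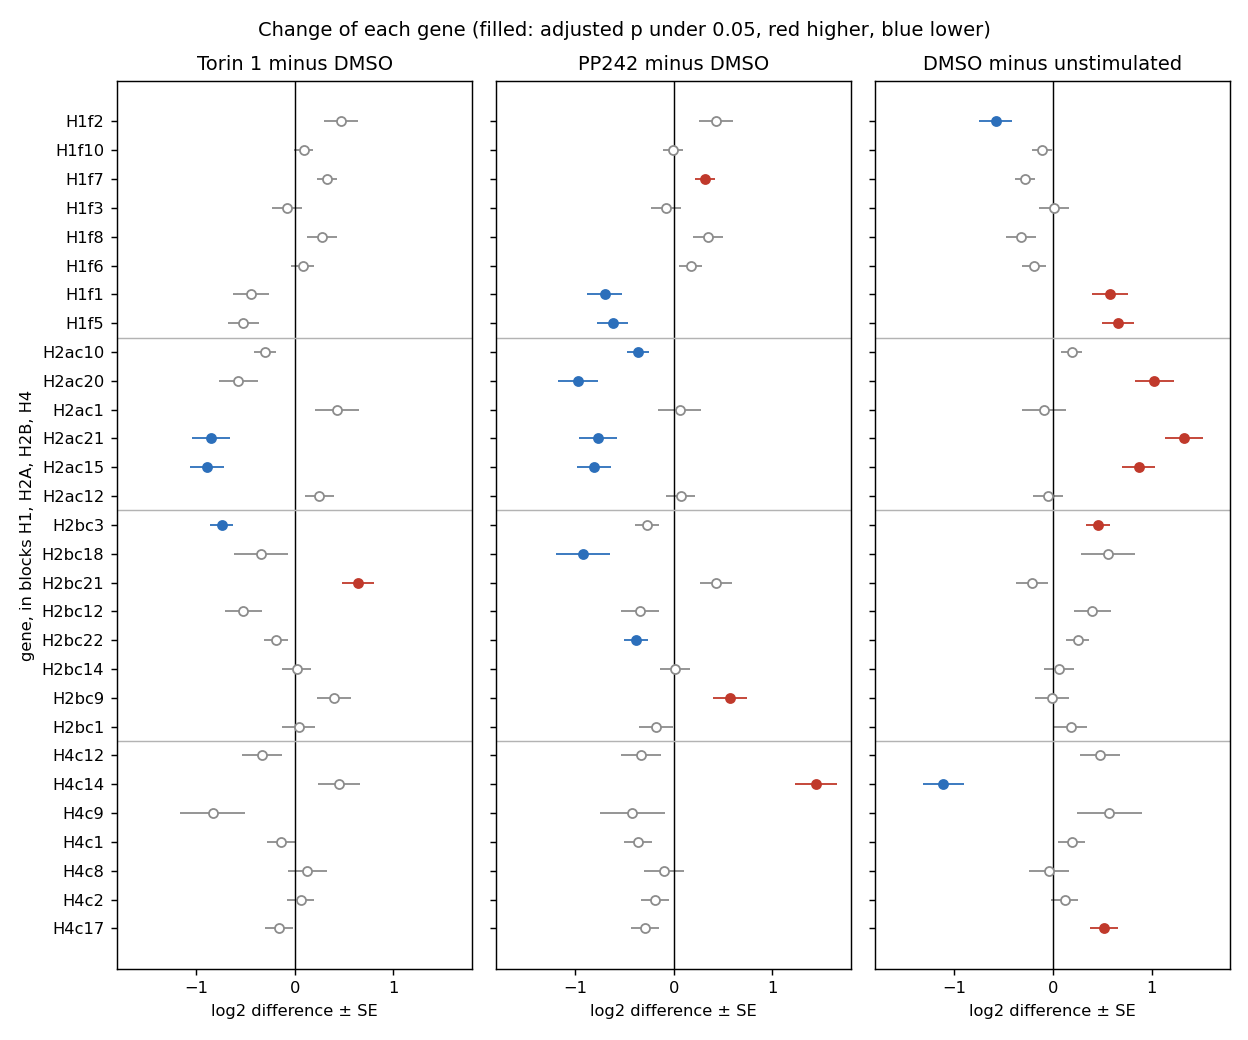
Log2 difference (± SE from the fit over all genes) of each histone gene for Torin 1 minus DMSO, PP242 minus DMSO and DMSO minus unstimulated, with called genes filled (red higher, blue lower) and rows grouped as H1, H2A, H2B and H4. The called H2A genes lie to the right of 0 for DMSO minus unstimulated and to the left of 0 with the inhibitors, and H4c14 is on the opposite side in each panel.

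H4 encodes the partner of H3 in the nucleosome, and 1 of its 7 genes, H4c14 in Hist2, had the largest called change with PP242 among all 29. H4c14 read 6.91, 6.84 and 6.98 with PP242, and 5.73, 6.41 and 5.61 with Torin 1. It read 5.0, 5.61 and 5.8 with DMSO, against 6.37, 6.70 and 6.68 in unstimulated cells. DMSO arrays were low and PP242 arrays high, above even the unstimulated ones, while Torin 1 arrays overlapped DMSO. The gene was 2.16-fold lower in DMSO than in unstimulated cells (-1.11 ± 0.21, adjusted p = 0.00148) and 2.72-fold higher with PP242 than with DMSO (1.44 ± 0.21, adjusted p = 0.000361), and both calls were kept in each of 24 settings. The Torin 1 difference from DMSO was 0.45 ± 0.21 (adjusted p = 0.255).

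H4c17 was dim and read 2.45, 2.90 and 2.66 in DMSO cells, against 2.14, 2.04 and 2.27 in unstimulated cells (0.52 ± 0.14, adjusted p = 0.0165). This was lost without unstimulated replicate 2 (0.0651) or DMSO replicate 2 (0.0779). H4c12 read 9.87, 9.73 and 9.83 in DMSO cells, against 8.92, 9.44 and 9.61 in unstimulated cells. The DMSO arrays all lay higher, but the difference of 0.48 ± 0.20 did not pass (adjusted p = 0.0959). It passed without Torin1 replicate 1 (0.0494).

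H4c9, with the largest SE of the 29 genes, read 6.54, 6.36 and 5.32 with DMSO, against 4.87, 5.60 and 6.04 in unstimulated cells. With Torin 1 it read 5.31, 4.92 and 5.48, a difference from DMSO of -0.83 ± 0.33 (adjusted p = 0.149) that passed without DMSO replicate 3 (0.0307), as did activation (0.0375). H4c1, at -0.36 ± 0.14 with PP242 (adjusted p = 0.0941), passed only without DMSO replicate 3 (0.0378). H4c2 and H4c8 were called in no comparison.

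Compared with each other, PP242 (500 nM) and Torin 1 (50 nM) gave 0 called histone genes in limma (0.392% of all genes were called). There were 3 at an unadjusted p under 0.05, a threshold at which the share of all genes was not counted, so no comparison is made. The doses differ, so the values stand side by side without a comparison of potency. H4c14 differed by 1.00 ± 0.21 between PP242 and Torin 1, with all PP242 arrays higher, at an adjusted p of 0.0718. It passed without DMSO replicate 1 (0.0356) or Torin1 replicate 2 (0.0425). It also passed after a filter on dim genes (0.0448) and with a trended, robust variance (0.0287).

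Against unstimulated cells, 0 histone genes were called with either inhibitor. Of all genes, 7.73% were called with Torin 1 and 3.07% with PP242. At an unadjusted p under 0.05 there were 7 histone genes with Torin 1 and 2 with PP242. The share of all genes at that threshold was not counted, so no comparison is made with it. The median difference was 0.08 with Torin 1 and 0.03 with PP242, against -0.02 for all genes. H2ac21 stayed above unstimulated cells by 0.56 ± 0.19 with PP242 and 0.48 ± 0.19 with Torin 1, which did not pass with or without any 1 array (adjusted p = 0.16 and 0.143 with all arrays). H4c14 was -0.67 ± 0.21 with Torin 1 (adjusted p = 0.0749), which passed without DMSO replicate 1 (0.0388) or Torin1 replicate 2 (0.0139), H2ac20 with Torin 1 passed without Torin1 replicate 1 (0.0218), and H2bc9 with PP242 passed without DMSO replicate 2 (0.0447).

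The coding sequences of a histone type are nearly the same, and 37 histone clusters carried several gene symbols, with 34 distinct sets of values: 9 H2A, 7 H2B, 12 H3, 5 H4 and 1 with both H1 and H2B symbols. No gene can be named from them, and they are given by cluster number and type. The same sharing of sequence means that signal of a single-symbol cluster may include a close copy, which was not tested. In a fit over all 41345 clusters, 9 of the 34 were higher and 3 lower in DMSO than in unstimulated cells (8.07% and 8.97% of all clusters), 2 higher and 5 lower with PP242 than with DMSO (6.06% and 5.42%), and 0 higher and 3 lower with Torin 1 (1.54% and 1.97%). The 2 called higher with PP242 were both lost without DMSO replicate 3 or PP242 replicate 1. The median difference was 0.12, -0.16 and -0.13 in the same 3 comparisons, against -0.04, 0.03 and 0.02 for all clusters.

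The clusters that fell with both inhibitors were 2 of H2B and 1 of H2A. H2B cluster 17290997, with 4 symbols, read 8.33, 8.35 and 8.21 with PP242 and 8.19, 8.21 and 8.0 with Torin 1. It read 9.41, 9.16 and 9.27 with DMSO, against 8.39, 8.54 and 8.70 in unstimulated cells. The 3 DMSO arrays stood apart from all the others. The differences were 0.74 ± 0.11 on activation (adjusted p = 0.00104), -0.98 ± 0.11 with PP242 (0.00043) and -1.15 ± 0.11 with Torin 1 (0.000883).

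H2B cluster 17285691, with 12 symbols, read 7.35, 7.68 and 7.30 with PP242, 7.43, 7.65 and 7.47 with Torin 1 and 8.83, 8.77 and 8.70 with DMSO, against 7.07, 7.78 and 7.83 in unstimulated cells. Its differences were 1.21 ± 0.19 on activation (adjusted p = 0.00116), -1.33 ± 0.19 with PP242 (0.00134) and -1.25 ± 0.19 with Torin 1 (0.00602). H2A cluster 17285867, with 10 symbols and dim, gave 1.10 ± 0.18, -1.11 ± 0.18 and -1.19 ± 0.18 in the same order. All 9 calls of these 3 clusters were kept when any 1 of the 12 arrays was left out.

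Others went the opposite way. H2B cluster 17285851, with 3 symbols, read 5.74, 5.85 and 5.66 in DMSO cells, against 6.71, 6.80 and 7.24 in unstimulated cells (-1.17 ± 0.24, adjusted p = 0.00593). H4 cluster 17291019, with 13 symbols and dim, was lower on activation (-1.01 ± 0.20, adjusted p = 0.006). It was higher with PP242 (0.87 ± 0.20, adjusted p = 0.0189), which was lost without DMSO replicate 3 (0.0523) or PP242 replicate 1 (0.0767). H2A cluster 17400545, with 3 symbols, read between 10.79 and 11.43 on all arrays and was not called in any of the 3 comparisons.

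H3 was read only through such clusters. Of the 12, 2 were higher and 1 lower on activation (8.07% and 8.97% of all clusters were). With PP242, 1 was higher and 1 lower (6.06% and 5.42% of all clusters), and 0 passed with Torin 1. The counts of 1 of 12 are near the shares of all clusters. H3 cluster 17285821, with 4 symbols, read 2.37, 2.28 and 2.37 with PP242 and 2.69, 2.87 and 3.20 with DMSO, against 2.30, 2.22 and 2.5 in unstimulated cells. It gave 0.58 ± 0.13 on activation (adjusted p = 0.0112) and -0.58 ± 0.13 with PP242 (0.0163), and the PP242 call was lost without PP242 replicate 2 (0.0527). H3 cluster 17285825 was higher on activation (0.50 ± 0.11, adjusted p = 0.0102). H3 cluster 17408015 was lower (-0.58 ± 0.18, adjusted p = 0.0452) and higher with PP242 (0.67 ± 0.18, adjusted p = 0.0316), and its activation call was kept in 3 of 12 fits with 1 array left out and its PP242 call in 8. All 3 were below the dim level.

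**Figure D4:**
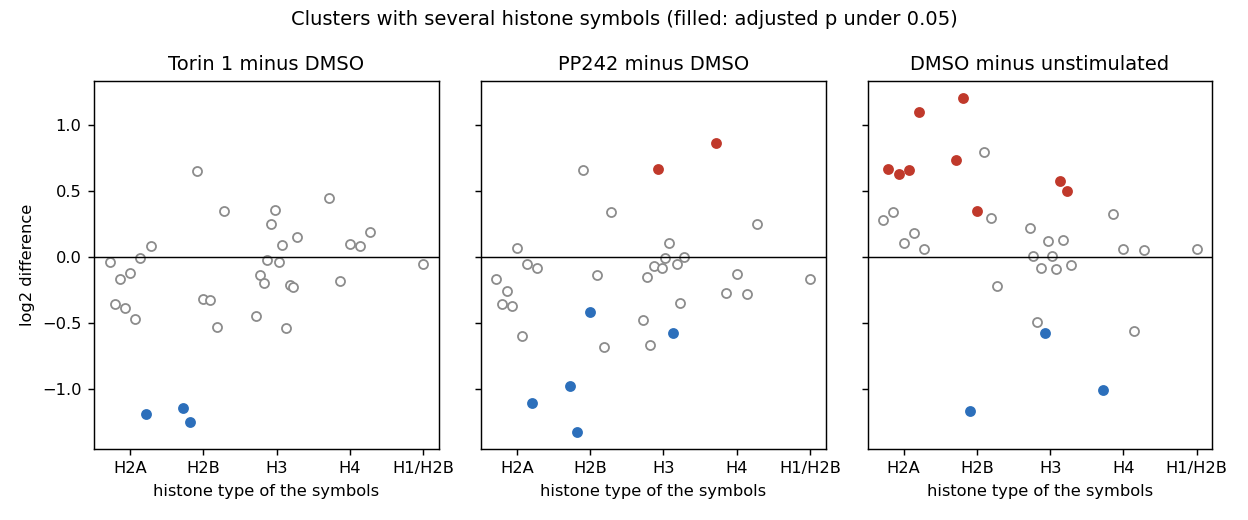
Log2 difference of the 34 distinct clusters that carry several histone symbols, by histone type, for Torin 1 minus DMSO, PP242 minus DMSO and DMSO minus unstimulated, with called clusters filled (red higher, blue lower). Among H2B clusters, 2 lie near -1 with both inhibitors and 1 lies near -1 for DMSO minus unstimulated; most H3 clusters are near 0.

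The genes of the machinery that copies DNA were nearly all called. Of 37 S phase replication genes, 33 were higher (11.8% of all genes were) and 0 lower on activation. Of the same genes, 34 were lower with PP242 (9.27% of all genes) and 32 lower with Torin 1 (4.79%). Their median differences were 1.21, -1.19 and -1.11. Dtl, a part of the ubiquitin ligase that removes the licensing factor Cdt1, changed most, at 3.01 ± 0.15 on activation, -3.06 ± 0.15 with PP242 and -2.48 ± 0.15 with Torin 1 (adjusted p = 2.37e-08, 9.1e-08 and 1.44e-06). Uhrf1, which helps to copy DNA methylation, gave 2.60 on activation, and the helicase component Mcm3 gave 2.45.

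Histone chaperones and importins, which carry new histones to the nucleus and onto DNA, counted 16 of 29 higher and 3 lower on activation. Of all genes, 11.8% were higher and 12.1% lower on activation, 7.38% and 9.27% with PP242, and 3.33% and 4.79% with Torin 1. With PP242, 2 were higher and 14 lower, and with Torin 1 1 was higher and 9 lower (6 without DMSO replicate 1), and the higher one, Ubn2, was lost in 8 of the 12 fits with 1 array left out. The medians were 0.38, -0.33 and -0.22. Chaf1a, the large subunit of chromatin assembly factor CAF-1, read 5.02, 4.82 and 4.60 with PP242, 4.26, 4.38 and 4.88 with Torin 1 and 5.76, 6.51 and 6.59 with DMSO, against 4.62, 4.57 and 4.67 in unstimulated cells. It differed by 1.66 ± 0.20 on activation, by -1.47 ± 0.20 with PP242 and by -1.78 ± 0.20 with Torin 1 (adjusted p = 3.91e-05, 0.000229 and 0.000204). Ipo5, an importin for core histones, gave 1.81 ± 0.11, -1.26 ± 0.11 and -0.78 ± 0.11, and the chaperone Asf1b gave 0.92 ± 0.15, -1.12 ± 0.15 and -1.27 ± 0.15, all called.

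The list of genes for histone mRNA processing and decay, which also holds regulators of histone gene transcription such as Hinfp and Npat, was divided. On activation 11 of 34 were higher and 5 lower (11.8% and 12.1% of all genes were). With PP242 3 were higher (1 without PP242 replicate 1) and 9 lower (7.38% and 9.27% of all genes). With Torin 1 3 were higher and 1 lower (3.33% and 4.79% of all genes). The 5 lower on activation and the 3 higher with PP242, Hinfp among each, are near the shares of all genes. The medians were 0.11, -0.11 and -0.04. Slbp, which binds the stem-loop, read 7.79, 7.83 and 7.75 with PP242 and 8.11, 8.04 and 8.38 with Torin 1. It read 8.29, 8.58 and 8.43 with DMSO, against 7.82, 8.03 and 8.15 in unstimulated cells. PP242 arrays were the lowest and did not overlap DMSO.

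Slbp was higher on activation (0.43 ± 0.12, adjusted p = 0.0169), a call lost without unstimulated replicate 1 or DMSO replicate 2 (adjusted p up to 0.0797), and lower with PP242 (-0.64 ± 0.12, adjusted p = 0.00199), while Torin 1 did not pass (-0.26 ± 0.12, adjusted p = 0.244). Cpsf2, a subunit of the complex that cleaves histone pre-mRNA, gave 0.84 ± 0.12 on activation, -0.79 ± 0.12 with PP242 and -0.86 ± 0.12 with Torin 1, all called. Tut4, which adds uridines to RNA, was the reverse at -0.86 ± 0.09, 0.82 ± 0.09 and 0.57 ± 0.09, all called. Hinfp, a factor of H4 promoters, was lower on activation (-0.51) and higher with PP242 (0.54) and Torin 1 (0.72). Its activation call was lost without unstimulated replicate 2 or 3 or DMSO replicate 1 (adjusted p up to 0.0644), and its PP242 call without DMSO replicate 1 or PP242 replicate 1 (up to 0.0691). Npat, the coactivator of histone genes, did not pass in any of the 3 (0.15, -0.06 and 0.04).

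Of the 9 replacement variants measured, H1f10 included, 1 was called higher and 1 lower on activation (11.8% and 12.1% of all genes were). With PP242, 2 were higher and 1 lower (7.38% and 9.27% of all genes), and with Torin 1, 0 and 1 (3.33% and 4.79%). The counts of 1 of 9 on activation and lower with PP242 are near the shares of all genes. The one called higher on activation was H2ax, which is phosphorylated at DNA breaks and whose gene also gives a stem-loop mRNA. H2ax read 7.75, 8.24 and 8.47 with PP242, 8.64, 8.84 and 8.75 with Torin 1 and 9.88, 9.92 and 9.53 with DMSO, against 8.24, 8.32 and 8.45 in unstimulated cells. It differed by 1.44 ± 0.16 on activation, -1.62 ± 0.16 with PP242 and -1.03 ± 0.16 with Torin 1 (adjusted p = 1.85e-05, 1.81e-05 and 0.00162). H2az2 was lower on activation (-0.50 ± 0.10, adjusted p = 0.0017) and higher with PP242 (0.36 ± 0.10, adjusted p = 0.0195), the PP242 call lost without DMSO replicate 1 or 3 or PP242 replicate 3 (up to 0.0779). The centromere variant Cenpa was also called higher with PP242 (0.36, adjusted p = 0.0461), a call lost in 8 of the 12 fits with 1 array left out (adjusted p up to 0.14).

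**Figure D5:**
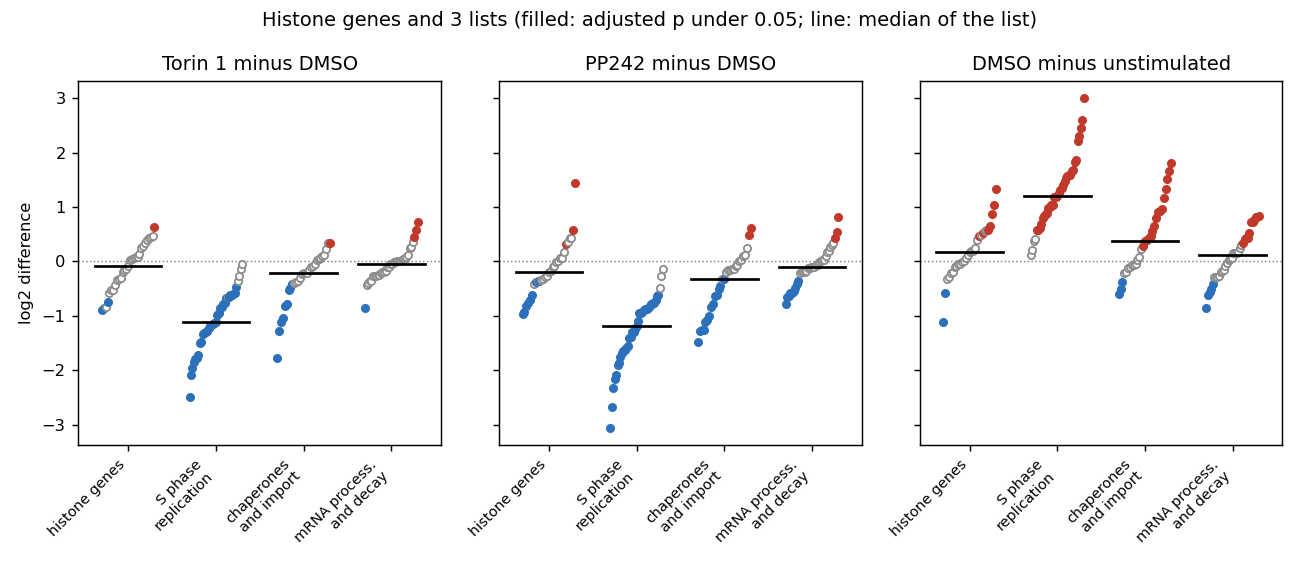
Log2 difference of each of the 29 histone genes and of the genes of 3 lists (37 S phase replication genes, 29 histone chaperones and importins, 34 histone mRNA processing and decay genes) for Torin 1 minus DMSO, PP242 minus DMSO and DMSO minus unstimulated, with called genes filled and the list's median as a line. The S phase medians are 1.21 for DMSO minus unstimulated, -1.19 with PP242 and -1.11 with Torin 1, and the histone medians are 0.18, -0.19 and -0.08.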

How the data were processed

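Expression was measured on 12 GeneChip Mouse Gene 2.0 ST arrays, 3 for each of 4 groups. The deposited values are log2 expression values of 41345 transcript clusters, which the authors summarised with RMA, and the submitters' processing notes also name Partek 6.6. No scanner intensities were used here, so the number of arrays limits the precision and no probe-level detection call was available. Instead, the median of the 16004 clusters without a symbol, 4.85, served as a dim level. A fold against a group whose mean lay below it is given as a lower bound, with each array of that group set to the higher of its own value and the dim level before averaging. Clusters were named from the platform annotation (23521 with 1 symbol, 1820 with several, 16004 with none), with the brightest cluster kept for each of 22180 genes, and symbols and positions were taken from RefSeq on GRCm38.p6. Promoter sequences are RefSeq's for that build.

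Group means were fitted with limma 3.58.1 (lmFit and eBayes) in R 4.3.3 over all 12 arrays and all 22180 genes. The p-values were two-sided and adjusted by Benjamini-Hochberg over all genes, and a gene was called at an adjusted p under 0.05. Clusters with several histone symbols were tested in the same fit over all 41345 clusters. Standard errors are those of the moderated fit. The steps were tested on simulated data first. Histone genes were described by a rule: in each type the 2 with the highest mean and the 3 with the smallest F-test p, every gene filling a count of 5 or fewer, and up to 4 called genes of each other list. Some genes outside it are named because leaving out an array changed their call. The genes, lists and tests were chosen with earlier results of these data known. The replicate numbers were not taken as pairs, since the methods stated for these arrays do not use them so. Over all genes, same-numbered arrays did not deviate together. Alternatives were a filter on dim genes, other variance models, array weights, fits on the groups compared only, a replicate block, stricter thresholds, other ways of counting the genes and leaving out each array. The target preparation used 500 pg of RNA, and whether it reaches mRNA without a poly(A) tail to the same degree as other mRNA was not tested.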

Additional observations from a re-analysis of the deposited data

How the results depend on the processing

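The genes with the 2 highest means or the 3 smallest F-test p of each type gave 2604 results for a gene under an alternative. Of these, 2479 stayed on the same side of the threshold, 100 lost and 25 gained a call, and 0 reversed. All comparisons are counted, so most of these results are of genes with no call to lose. The tally therefore does not measure how stable the calls were. With PP242, the call of H1f7 was kept in 10 of 23 settings and that of H2bc9 in 15 of 23, while those of H2ac15, H2ac20 and H4c14 were kept in each. The tally leaves out the other histone genes. Among them are H2bc22, whose PP242 call was kept in 12 of 23 settings, and H2bc12, H4c9 and H1f8, which gained calls. Counts of called histone genes, 9 for DMSO against unstimulated cells, 11 for PP242 and 4 for Torin 1 against DMSO and 0 in the other 3 comparisons, moved by over 1.5 times as follows. A filter on dim genes, which left 11 of the 29 genes, gave 5 on activation, 5 with PP242 and 1 between PP242 and Torin 1. All clusters in the fit gave 6 with PP242, no empirical Bayes step 5, and a fit of PP242 and DMSO alone 7. A trended, robust variance gave 1 between the inhibitors, and array weights gave 1 for Torin 1 against unstimulated cells. An adjusted p under 0.01 gave 3 with PP242 and 2 with Torin 1, and a 2-fold minimum gave 3 on activation, 1 with PP242 and 0 with Torin 1. With clusters of several symbols added where all symbols match the naming pattern, 56 genes and clusters in all, the counts were 19, 20 and 7. There was also 1 for Torin 1 against unstimulated cells. This left out clusters with a symbol outside the pattern, such as H2B cluster 17285691 and H4 cluster 17291019. The cause of these shifts was not tested beyond the changed number of genes.

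The next 3 ways of counting were chosen after seeing the data. Reading H4bc24 and H4f16 as histone symbols too gave 22 on activation, 23 with PP242, 8 with Torin 1 and 1 for Torin 1 against unstimulated cells. Only genes at or above the dim level gave 5, 5 and 2. Leaving out the germ cell and replacement genes moved no count by over 1.5 times.

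Leaving out 1 array at a time gave 7 to 11 genes on activation, 4 to 11 with PP242, 3 to 6 with Torin 1, and 0 to 1 for PP242 against Torin 1, Torin 1 against unstimulated and PP242 against unstimulated cells.

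With the replicate block the counts were 10 on activation, 11 with PP242, 5 with Torin 1, 0 between the inhibitors, and 1 each for Torin 1 and PP242 against unstimulated cells. Calls gained with the block were H4c12 on activation (adjusted p = 0.0352), H1f2 with PP242 (0.0447) and Torin 1 (0.0488), and H2ac21 for PP242 (0.0339) and Torin 1 (0.0344) against unstimulated cells, and H1f7 with PP242 was lost (0.0603). Over all genes, same-numbered arrays' deviations correlated at -0.07 to 0.06, 0 of 18 pairs over 0.1, and 5 of 12 arrays correlated best with their own number. This was not tested for the histone genes alone. In H2A cluster 17291012 replicate 1 was the lowest array of every group, for H4c12 of every group except DMSO, and for H4c2 of none.

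Signal limits these results. Of the 29 genes, 19 had means under the dim level, and with 3 arrays in a group many calls near the threshold changed when 1 array was left out. Near-identical copies may share signal, which was not tested.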
